A study of Saccharomyces cerevisiae with 8 samples.

Results

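The comparison described here sets the H4K16Q mutant of *Saccharomyces cerevisiae* directly against the H4H18A mutant, with no wild type in between. Its members are 4 of the 8 RNA-seq libraries of the study, 2 of H4K16Q and 2 of H4H18A, chosen by their sample titles. Both strains derive from JDY86, a haploid *MATa* parent, and carry a synthetic pair of H3 and H4 genes, marked with *URA3*, at the *HHT2-HHF2* locus. In H4K16Q, lysine 16 of histone H4 was replaced by glutamine, which resembles acetyl-lysine in charge, and in H4H18A, histidine 18 of H4 was replaced by alanine. The groups shared a *HHT1-HHF1* locus replaced by *NatMX4*, the *HIS3* gene placed behind the *MFA1* promoter at *CAN1*, and deletion alleles of *HIS3*, *LEU2*, *TRP1*, *URA3* and *MET15*, with a further allele that the study prints as K2Δ0. Cultures grew in YPD at 30 °C and were taken at 16 h, in late log phase. The strain field of the 4 samples names histone H3 (H3K16Q and H3H18A), whereas the series text and the study name H4 for the same residues, and the H4 names are used here. Each mutant is a single strain from a purchased library. The study describes its replicates as biological and independently prepared.

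Histone H4 residues 16 and 18 lie in the basic patch of the H4 tail. Acetylation of lysine 16 by Sas2 and its removal by the deacetylase Sir2 are a switch for the binding of the silencing protein Sir3, which spreads with Sir2 and Sir4 along telomeres and the silent mating loci. Sir2 also silences the ribosomal DNA, within the RENT complex. Substitutions at either residue are known for loss of silencing in yeast, and the study took both strains for RNA-seq as long-lived mutants in stationary phase.

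The positions of the substitutions are shown on the reference coding sequences of both H4 genes, since they define the strains. The start of each gene is given from the initiator codon, and the capitals mark the codons of residues 16 and 18 in the usual numbering, which leaves out the initiator methionine. The sequences are those of RefSeq for the R64 genome (HHF1 at chrII:255619-255684, minus strand; HHF2 at chrXIV:576727-576792, plus strand), not those of the synthetic cassette.
HHF1: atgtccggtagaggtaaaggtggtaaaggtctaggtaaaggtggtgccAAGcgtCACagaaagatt
HHF2: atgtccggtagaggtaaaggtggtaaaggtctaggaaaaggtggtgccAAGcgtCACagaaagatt

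The deposited tables hold whole-number read counts for 6600 features. The totals were 10529401 and 8645533 counts in H4K16Q, against 621770 and 852659 counts in H4H18A, so that the mean depth of H4K16Q was 13.0 times that of H4H18A and the strain cannot be told apart from the depth. A single count corresponded to 0.0662 and 0.136 CPM (counts per 1e6 counts of the library, after TMM scaling) in H4K16Q, and to 2.17 and 1.06 CPM in H4H18A. The limit that a count of 0 allows, 3 counts, stood at 0.199 and 0.409 CPM in H4K16Q and at 6.52 and 3.18 CPM in H4H18A, and covers counting error only. At least 10 counts were found on 5910 and 5721 features in H4K16Q, and on 3764 and 4693 features in H4H18A. Of all features, 838 reached 10 counts in both H4K16Q libraries and in neither H4H18A library, and 0 did so the other way round.

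Among features with counts in every library, those of the ribosomal DNA differed most between the strains. The YLR154 features, short open reading frames annotated within the ribosomal RNA repeat of chromosome XII, took 0.254% and 0.180% of the counts in H4K16Q, against 16.3% and 33.6% in H4H18A. The groups did not overlap, and the mean share was 115-fold higher in H4H18A (0.217% in H4K16Q and 24.96% in H4H18A, a log2 ratio of -6.85). An exact two-sided permutation test gave p = 0.333, which is the smallest p that 2 against 2 libraries allow. Total RNA was sequenced, and how ribosomal RNA was removed is not given in the sources used here. Across the series the share ran with depth: the 4 deepest libraries held between 0.180% and 1.88%, and the 4 shallowest between 16.3% and 33.9%, with a wild type library on each side (0.990% and 21.2% in WT H4). The part of depth, of rRNA removal and of the strain in this difference was not tested.

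**Figure D1:**
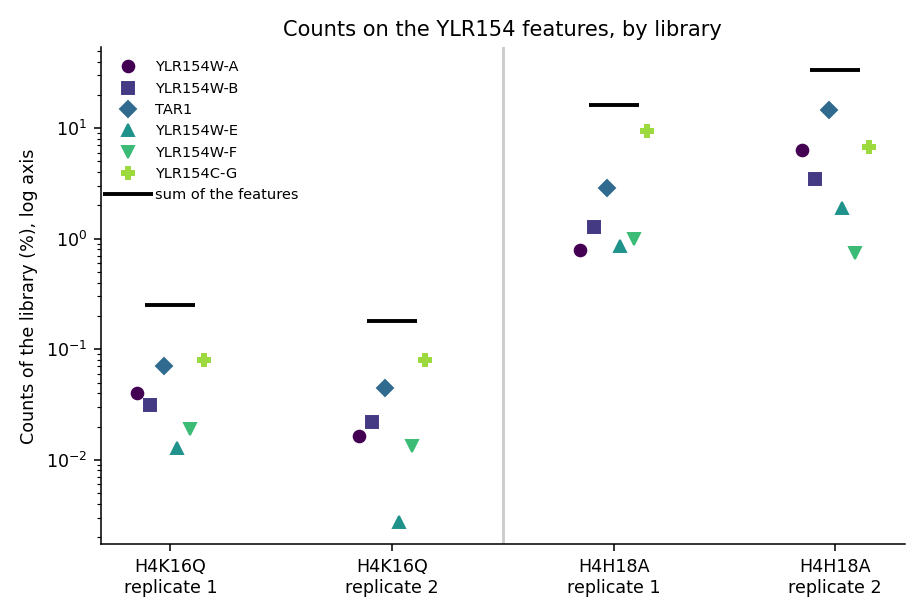
Share of each library's counts (%, log axis) that fell on 6 YLR154 features, with 1 symbol per feature and a horizontal bar for the sum of the YLR154 features, for the 2 H4K16Q and the 2 H4H18A libraries. The sums are 0.254% and 0.180% in H4K16Q and 16.3% and 33.6% in H4H18A, and every feature lies higher in both H4H18A libraries.

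TAR1 (YLR154W-C, chrXII:454696-455070), whose reading frame lies antisense to the 25S rRNA and encodes a mitochondrial protein, had 7474 and 3890 counts in H4K16Q, against 17897 and 123573 counts in H4H18A. Its 2 H4K16Q libraries stood at 495 and 530 CPM, and its 2 H4H18A libraries at 38906 and 130810 CPM. YLR154C-G (chrXII:462522-462671), which overlaps the 25S rRNA gene of the second annotated repeat, had 552 and 942 CPM in H4K16Q, against 128520 and 60570 CPM in H4H18A. Both features thus lay far below in H4K16Q, but the H4H18A libraries were in the opposite order for these features: TAR1 was the more abundant in replicate 2, and YLR154C-G in replicate 1. The ratio of TAR1 to YLR154C-G counts was 0.896 and 0.563 in H4K16Q, against 0.303 and 2.16 in H4H18A, and here the groups overlapped.

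In edgeR's quasi-likelihood fit, the log2 fold change of H4K16Q over H4H18A was -7.37 for TAR1 (standard error, SE, 2.76) and -6.98 for YLR154C-G (SE 2.78). Each SE was computed back from the fold change and the F statistic of the test. YLR154W-E had the smallest p of the 6 (log2 -7.88, SE 1.82), followed by YLR154W-F (log2 -6.11, SE 1.53). YLR154W-B (log2 -6.67, SE 1.92) and YLR154W-A (log2 -7.15, SE 2.21) complete the 6 features that could be tested. Each had an unadjusted p under 0.05, and after Benjamini-Hochberg adjustment over all features an adjusted p of 0.9999, as had every other gene given here with a standard error (SE). YLR154C-H, over the 5S rRNA gene, had 2 and 23 counts in H4K16Q and 1 and 1 counts in H4H18A, and was not tested. RNH203 (YLR154C, a subunit of RNase H2), the neighbouring gene outside the repeat, had 12.9 and 9.54 CPM in H4K16Q and 13.0 and 19.1 CPM in H4H18A and was kept in all fits.

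Sequence shared with the repeat also appeared outside it. RRT15 (YLR162W-A, chrXII:490406-490594) holds 137 bases, 72.5% of its length, that match the 25S gene RDN25-1 with 2 mismatches, and YLR162W holds 177 such bases, 49.6% of its length. The matching stretch of RRT15 is shown beside that of RDN25-1 (RefSeq, R64, plus strand of chrXII:490406-490542 and of chrXII:452438-452574), with the mismatched bases in capitals, because reads from rRNA can be assigned to RRT15.
RRT15: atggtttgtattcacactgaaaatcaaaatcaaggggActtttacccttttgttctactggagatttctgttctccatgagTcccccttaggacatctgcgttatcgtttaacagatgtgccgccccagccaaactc
RDN25-1: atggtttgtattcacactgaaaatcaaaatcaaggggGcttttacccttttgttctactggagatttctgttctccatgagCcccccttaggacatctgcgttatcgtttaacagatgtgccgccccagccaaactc
RRT15 had 5.82 and 23.4 CPM in H4K16Q, against 539 and 32.8 CPM in H4H18A. The groups did not overlap, but H4H18A replicate 2 lay close to H4K16Q replicate 2, and the difference rested on H4H18A replicate 1 (log2 -4.28, SE 1.17, and log2 -1.17 without that library). YLR162W had 34 and 101 counts in H4K16Q and 31 and 29 counts in H4H18A, or 2.25 and 13.8 CPM against 67.4 and 30.7 CPM.

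A further feature with a large share of the reads did not separate the strains. YGL088W (chrVII:345836-346201), which overlaps the snoRNA gene SNR10, took 1.39% and 3.55% of the counts in H4K16Q, against 15.7% and 0.372% in H4H18A. The 2 H4H18A libraries lay on either side of both H4K16Q libraries.

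Over the 5668 features with enough counts, 0 (0%) passed the quasi-likelihood test of edgeR at an adjusted p of 0.05. At an unadjusted p under 0.05 there were 136 features (2.4%), of which 75 (1.32%) were higher and 61 (1.08%) lower in H4K16Q. DESeq2 called 7 features lower in H4K16Q, the 6 YLR154 features and RRT15. The likelihood-ratio test of edgeR also called 7, the same 6 YLR154 features and YGL149W. Neither called any feature higher. YGL149W, a dubious reading frame named here after its values were seen, had 13 and 19 counts in H4K16Q and 5 and 29 counts in H4H18A. The log2 fold change was above 0 in 54.8% of the features and below 0 in 45.2%, with a median of 0.066. In 815 features (14.4%) both H4K16Q libraries lay above both H4H18A libraries, and in 654 (11.5%) both lay below.

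**Figure D2:**
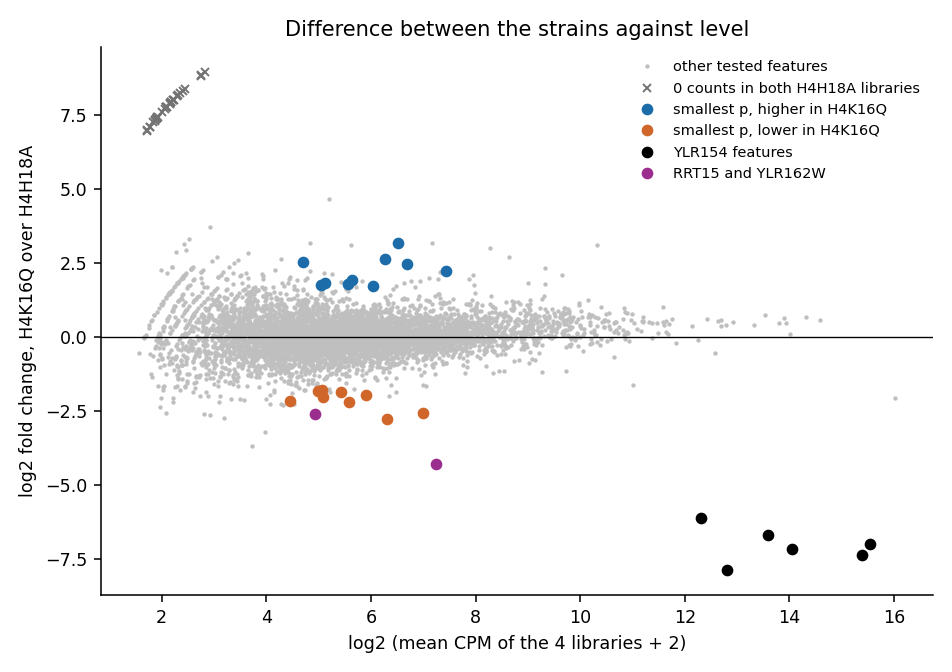
Log2 fold change of H4K16Q over H4H18A against the level of each tested feature (log2 of the mean CPM of the 4 libraries plus 2). Black points are the 6 YLR154 features between -7.88 and -6.11. Coloured points are the 2 features that share sequence with the repeat and the genes with the smallest unadjusted p among those with non-overlapping libraries and a mean of at least 20 CPM. Crosses are features at 0 counts in both H4H18A libraries, whose fitted values are not bounds.

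When the YLR154 features were taken out before library sizes and scaling were computed, 5662 features were tested and again 0 (0%) passed. At an unadjusted p under 0.05 there were 133 (2.35%), of which 78 (1.38%) were higher and 55 (0.971%) lower in H4K16Q. DESeq2 and the likelihood-ratio test then called 0 as well, with 111 and 191 features at an unadjusted p under 0.05. Both H4K16Q libraries lay above both H4H18A libraries in 866 features (15.3%) and below them in 610 (10.8%). The log2 fold change was above 0 in 56.9% of the features and below 0 in 43.1%, with a median of 0.092. Of the 10 genes with the smallest p in each direction, 9 higher and 8 lower ones were the same with and without the YLR154 features, and the genes that entered were OYE3, CDC31 and NAT5.

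The spread between replicates was larger than the difference between the means of the strains. Over the tested features, the median absolute log2 difference, with 2 added to each CPM, was 0.554 between the H4K16Q replicates and 0.741 between the H4H18A replicates, and 0.369 between the means of the strains, which averaging over 2 libraries makes smaller than a difference between single libraries. H4K16Q replicate 2 and H4H18A replicate 1 differed by a median of only 0.496. As a description across features, which are not independent, Spearman's rho of the levels was 0.884 between the H4K16Q replicates and 0.806 between the H4H18A replicates, while H4K16Q replicate 2 and H4H18A replicate 1 had the highest value of the 6 pairs, 0.917. Neither pair of replicates was a single library deposited again, since counts differed by far more than sampling noise (a chi-square per degree of freedom of 535 in H4K16Q and 69.8 in H4H18A).

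On the side where H4K16Q was higher, the 10 genes with the smallest p were taken among those with a mean of at least 20 CPM and non-overlapping libraries. The order of the strains in them was thus a condition of the choice. None passed the adjusted test. Ribosomal proteins are encoded by 4 of the 10. Such genes made up 136 of the 5668 features tested, and 72 of the 815 with both H4K16Q libraries above both H4H18A libraries. RPS25B, one of the paralogues of a small-subunit protein, had 199 and 60.0 CPM in H4K16Q, against 15.2 and 25.4 CPM in H4H18A (log2 2.64, SE 0.72, and log2 1.48 without H4K16Q replicate 1). RPL7B, for a large-subunit protein, had 95.8 and 56.0 CPM in H4K16Q, against 17.4 and 22.2 CPM in H4H18A (log2 1.92, SE 0.60). Both genes rested on 7 to 24 counts in H4H18A. RPL36A (log2 1.73) had 124.8 and 70.1 CPM in H4K16Q, against 32.6 and 26.5 CPM in H4H18A. RPS28B (log2 1.76) had 52.8 and 42.5 CPM against 13.0 and 14.8 CPM, on 6 and 14 counts in H4H18A. Without H4K16Q replicate 1, the log2 fold change was 1.42 for RPL7B, 1.18 for RPL36A and 1.54 for RPS28B. Each of the 4 has a near-identical copy with which reads can be exchanged. The copies, named after their values were seen, differed less: RPS25A had 488 and 498 CPM in H4K16Q and 400.0 and 475 CPM in H4H18A, RPL7A had 663 and 898 CPM against 643 and 313 CPM, and RPS28A had 211 and 322 CPM against 174 and 426 CPM. RPL36B had at most 11.1 CPM in any library.

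PDC6, the minor isozyme of pyruvate decarboxylase, had 281 and 40.1 CPM in H4K16Q, against 34.8 and 4.23 CPM in H4H18A (log2 3.16, SE 1.06). It rested on 16 and 4 counts in H4H18A, the lower one near the limit of 3 counts. LYS1, for saccharopine dehydrogenase in lysine synthesis, had 421 and 143 CPM in H4K16Q, against 69.6 and 52.9 CPM in H4H18A (log2 2.21, SE 0.72). TMT1, for the trans-aconitate methyltransferase, had 295 and 47.7 CPM in H4K16Q, against 34.8 and 27.5 CPM in H4H18A (log2 2.47, SE 0.82). In all 3 genes H4K16Q replicate 1 was far above the other H4K16Q library, and without it the log2 fold change was 1.04 for PDC6, 1.15 for LYS1 and 0.55 for TMT1. The transporter genes YHK8, of the drug antiporter family, and PDR11, an ABC transporter for sterol uptake, had log2 fold changes of 2.53 (SE 0.79) and 1.82 (SE 0.63). In H4H18A, YHK8 rested on 1 and 10 counts and PDR11 on 4 and 18 counts. QCR9, a subunit of respiratory complex III, had 94.2 and 46.5 CPM in H4K16Q and 21.7 and 19.1 CPM in H4H18A (log2 1.80, SE 0.62, and log2 1.13 without H4K16Q replicate 1).

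Promoters of these 10 genes were searched for TGACTC on both strands, the core letters bound by Gcn4, the activator of amino acid synthesis genes, in the 500 bases before the start codon. It was found in 4 of the 10 (RPL7B, LYS1, TMT1 and QCR9), in 1 of the 10 genes on the lower side (SEM1) and in 12.9% of 5896 promoters. AGGGG, the core of the stress response element bound by Msn2 and Msn4, was found in 3 of the 10, in 2 of the 10 on the lower side and in 34.5% of all promoters. The matches of LYS1 and TMT1, enzymes linked to amino acid synthesis, are shown in their surroundings with the match in capitals (RefSeq, R64, minus strand, 5′ to 3′; LYS1 at chrIX:420963-421002 and chrIX:420848-420887, TMT1 at chrV:540511-540550). Those of RPL7B and QCR9 are not shown, and binding by Gcn4 was not tested. GAGTCA is TGACTC read on the other strand.
LYS1: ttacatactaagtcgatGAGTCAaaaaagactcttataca
LYS1: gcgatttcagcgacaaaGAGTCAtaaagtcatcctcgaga
TMT1: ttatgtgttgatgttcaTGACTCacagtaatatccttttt

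On the side where H4K16Q was lower, 10 genes were chosen by the same conditions, so their libraries did not overlap by choice. RRT15 had the smallest p of the 10 genes, and the other 9 were protein-coding genes outside the ribosomal region, none past the adjusted test. ASF1, a chaperone of H3-H4 dimers, had 8.80 and 31.9 CPM in H4K16Q, against 39.1 and 231 CPM in H4H18A (log2 -2.75, SE 0.87). IES2, a subunit of the INO80 remodeller, had 8.74 and 24.4 CPM in H4K16Q, against 60.9 and 88.9 CPM in H4H18A (log2 -2.19, SE 0.65). EAF7, a subunit of the H4 acetyltransferase NuA4, had 11.8 and 16.5 CPM in H4K16Q, against 56.5 and 41.3 CPM in H4H18A (log2 -1.78, SE 0.59). The fold change of each of these 3 genes stayed below 0 without any 1 library, with log2 values between -3.96 and -1.06 for ASF1 (the last without H4H18A replicate 2), between -3.12 and -1.68 for IES2 and between -2.12 and -1.54 for EAF7. BRN1, a condensin subunit, had 11.9 and 14.4 CPM in H4K16Q and 30.4 and 61.4 CPM in H4H18A (log2 -1.83, SE 0.61). TOA1, the large subunit of TFIIA (log2 -1.96), and SEM1, a component of the proteasome lid (log2 -1.85), stood at 20.6 and 27.3 CPM against 34.8 and 148 CPM, and at 15.9 and 20.3 CPM against 28.3 and 99.5 CPM. Without H4H18A replicate 2, the log2 fold change was -1.33 for BRN1, -0.66 for TOA1 and -0.76 for SEM1.

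The 3 other genes of this group act in membrane trafficking. VPS21, a Rab GTPase of the endosome, had 28.7 and 44.0 CPM in H4K16Q, against 67.4 and 360 CPM in H4H18A (log2 -2.57, SE 0.78, and log2 -1.01 without H4H18A replicate 2). TLG1, a SNARE of the Golgi, had 15.6 and 10.4 CPM in H4K16Q, against 21.7 and 80.5 CPM in H4H18A (log2 -2.01, SE 0.69, and log2 -0.88 without H4H18A replicate 2). VPS24, an ESCRT-III subunit, had 71 and 76 counts in H4K16Q and 8 and 45 counts in H4H18A (log2 -2.16, SE 0.75, and log2 -1.33 without H4H18A replicate 2). In VPS21, ASF1, TOA1, SEM1 and TLG1, H4H18A replicate 2 stood far above the other 3 libraries.

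**Figure D3:**
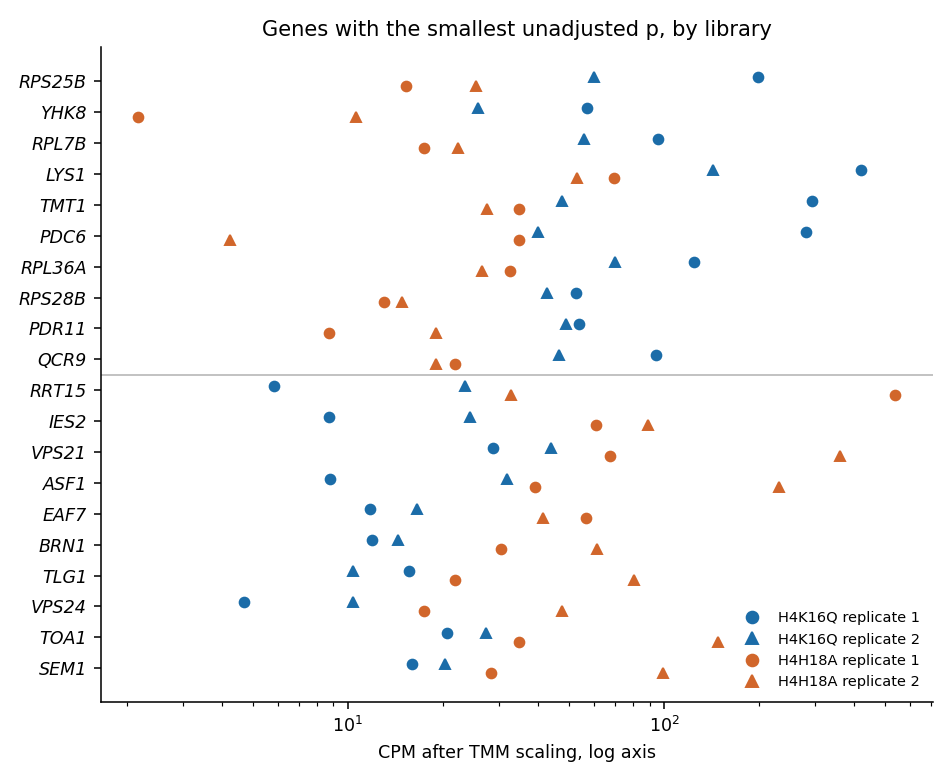
Levels in CPM (log axis) of 10 genes on each side, those with the smallest unadjusted p among genes with non-overlapping libraries and a mean of at least 20 CPM. The genes higher in H4K16Q are above the line and those lower below it. Blue symbols are H4K16Q and orange symbols H4H18A, circles are replicate 1 and triangles replicate 2, and H4H18A replicate 1 of RRT15 stands at 539 CPM, apart from the other 3 libraries.

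Of the 75 features at an unadjusted p under 0.05 that were higher in H4K16Q, 21 were at 0 counts in both H4H18A libraries. Such features numbered 33 among those tested, and 0 were at 0 in both H4K16Q libraries. They passed the filter on counts through H4K16Q alone, so their direction was fixed beforehand. In 2 of the 33, both H4K16Q libraries lay above the limit of 3 counts in H4H18A. POL30, for the replication clamp PCNA, had 133 and 74 counts in H4K16Q (8.80 and 10.1 CPM). Their mean was 1.95-fold that limit, taken per library and averaged, while the higher limit of H4H18A stood at 6.52 CPM. SLZ1, a sporulation gene named after its values were seen, had 183 and 61 counts in H4K16Q, with a mean 2.11-fold that limit. These folds are bounds for counting error only and leave out the spread between cultures. The others, such as DAN1 of the anaerobic cell wall with 88 and 32 counts, the sporulation gene DIT1 with 90 and 44 counts, and the nitrogen repressor DAL80 with 66 and 27 counts, were under the higher limit of H4H18A in at least 1 H4K16Q library, and no fold is given. For them a difference was not detectable at this depth.

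Cytoplasmic ribosomal protein genes lay mostly above 0, that is, higher in H4K16Q. Of the 137 tested of 138, 131 had a log2 fold change above 0, with a median of 0.68 beside 0.066 over all features tested. In 72 (52.6%) both H4K16Q libraries lay above both H4H18A libraries, against 14.4% of all features, and in 0 did they lie below. The list was drawn by gene name and also holds RPP1, a subunit of the RNA-processing enzymes RNase P and RNase MRP, without which the median was unchanged at 2 decimals. No member passed the adjusted test. An unadjusted p under 0.05 was found in 6, all higher in H4K16Q, beside 1.32% higher and 1.08% lower over all features. The median level, as log2 of CPM plus 2, was 8.36 and 8.82 in H4K16Q, against 8.09 and 7.88 in H4H18A. The median fold change lay between 0.36 (without H4K16Q replicate 2) and 1.01 (without H4H18A replicate 1), and it was 0.72 without the YLR154 features. In RPL15B (30.5 and 91.6 CPM in H4K16Q, 58.7 and 112 CPM in H4H18A) and in RPL22A, on 2 and 3 counts in H4H18A, the fold change was below 0.

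Mitochondrial ribosomal protein genes leaned the other way. The median log2 fold change of the 70 tested of 71 was -0.25, and 24 (34.3%) had both H4K16Q libraries below both H4H18A libraries, against 11.5% of all features, while 4 (5.71%) had them above, against 14.4%. The median level was 4.57 and 4.79 in H4K16Q, against 5.02 and 5.01 in H4H18A. RSM28 had 24.4 and 19.1 CPM in H4K16Q and 43.5 and 72.0 CPM in H4H18A (log2 -1.42, SE 0.57). MRPL22 and MRPS17 had log2 fold changes of -1.33 (SE 0.57) and -1.55 (SE 0.68), and MRPS17 rested on 10 and 34 counts in H4H18A. Without H4K16Q replicate 2 the list's median was -0.53, and without H4H18A replicate 1 it was -0.13. The direction of the list depended on the scaling: with total counts only, its median was 0.05, when that of all features was 0.36.

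Genes of a list of ribosome assembly factors showed no common direction between the strains but a large spread within each. The list was drawn by gene name and also holds 6 genes outside nucleolar assembly: MAK3, MAK10 and MAK31 of the acetyltransferase NatC, MAK32, DBP5 of mRNA export and the helicase gene DBP1. The median log2 fold change was 0.02 over the 110 genes and -0.01 over the 104 without these 6. Leaving out 1 library gave medians between -0.55 (without H4K16Q replicate 1) and 0.64 (without H4H18A replicate 2). The median level was 6.15 and 5.34 in H4K16Q, against 5.02 and 6.33 in H4H18A, so that the strains overlapped entirely. H4K16Q replicate 1 was above replicate 2 in 99 of the 110 genes, and H4H18A replicate 1 was above replicate 2 in 4 of them. MAK16, required for the large subunit, had 38.6 and 38.6 CPM in H4K16Q and 26.1 and 247 CPM in H4H18A (log2 -1.84, SE 0.82), and NOP16 had 11.6 and 10.9 CPM against 8.70 and 65.6 CPM (log2 -1.78, SE 0.79). Both were above 0 without H4H18A replicate 2 (log2 0.44 and 0.25). The 17 genes of RNA polymerase I, which transcribes the 35S rRNA precursor, had a median of 0.12 (-0.23 to 0.79 with 1 library left out), with 0 genes whose libraries did not overlap in either direction, against 14.4% above and 11.5% below over all features.

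**Figure D4:**
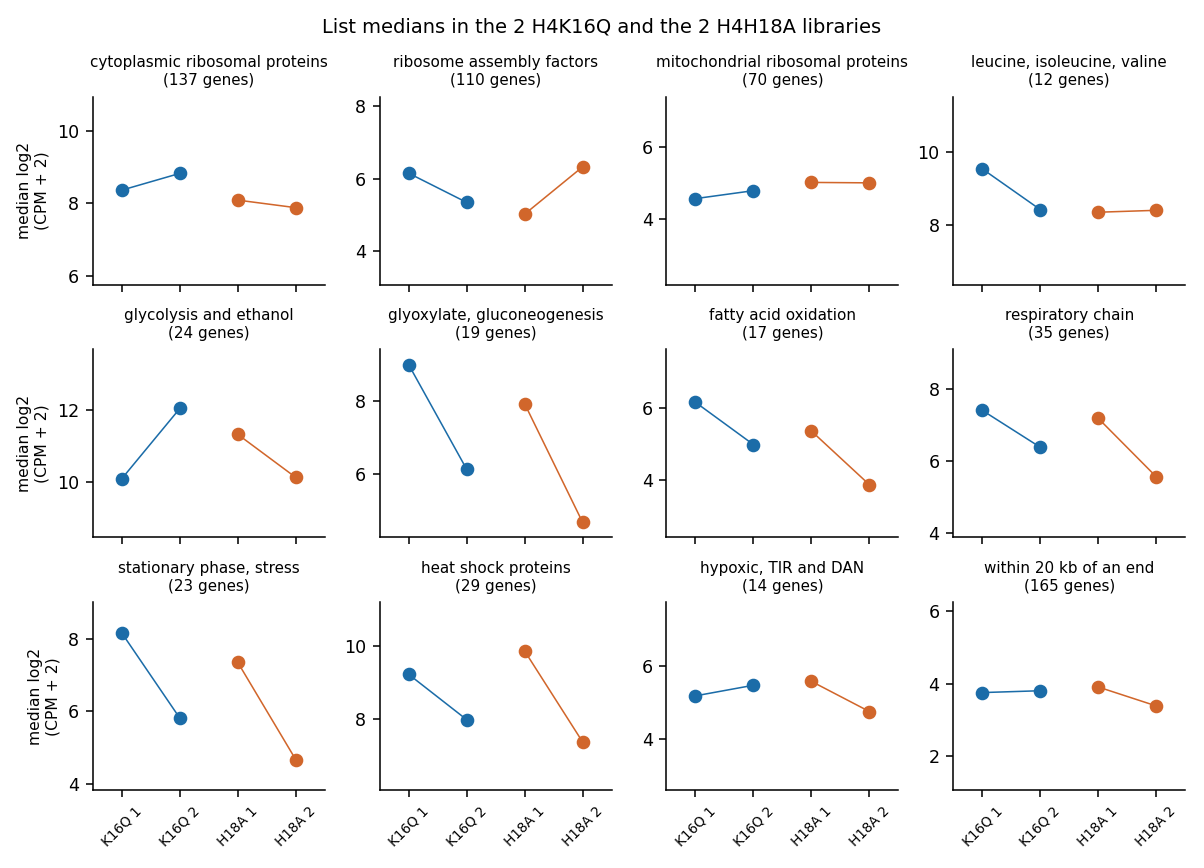
Median level of 12 gene lists in each library (log2 of CPM plus 2), with H4K16Q in blue and H4H18A in orange and a thin line joining the replicates of a strain; each panel spans the same range. The medians of cytoplasmic ribosomal protein genes are 8.36 and 8.82 in H4K16Q and 8.09 and 7.88 in H4H18A, while those of the glyoxylate and gluconeogenesis list run from 9.02 to 6.13 within H4K16Q and from 7.94 to 4.66 within H4H18A.

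Genes of amino acid synthesis lay mostly above 0. Of the 12 genes of leucine, isoleucine and valine synthesis, 11 had a fold change above 0, the median was 0.71, and 9 (75.0%) had both H4K16Q libraries above both H4H18A libraries, against 14.4% of all features, with 1 (8.33%) below, against 11.5%. Without H4K16Q replicate 1 the median of this list was 0.39. LEU1, for isopropylmalate isomerase, had 1642 and 353 CPM in H4K16Q and 243 and 334 CPM in H4H18A, and the mitochondrial branched-chain aminotransferase gene BAT1 had 674 and 230 CPM against 117 and 230 CPM. In both genes the lower H4K16Q library lay close to the higher H4H18A library. BAT2, the cytosolic counterpart of BAT1, had 218 and 326 CPM in H4K16Q and 426 and 334 CPM in H4H18A. OAC1, the mitochondrial carrier of isopropylmalate, had 129 and 17.2 CPM in H4K16Q and 13.0 and 24.3 CPM in H4H18A (log2 1.93, SE 0.87), and was at -0.21 without H4K16Q replicate 1. The medians of the other lists were 0.60 for arginine (6 of 15 genes, 40%, above and 0 below), 0.42 for lysine (4 of 8, 50%, above and 1 below), 0.45 for sulfate assimilation and methionine (7 of 28, 25%, above and 2 below) and 0.45 for histidine (2 of 6, 33.3%, above and 1 below), to be read against the same 14.4% and 11.5%. Without H4K16Q replicate 1 these medians were 0.11 for arginine, 0.23 for lysine, 0.22 for methionine and 0.0065 for histidine, and that of methionine was 0.12 without H4H18A replicate 2. For purine synthesis the median was -0.14 over 21 genes, with 2 (9.52%) above and 1 (4.76%) below, both under the shares of all features, and it was 0.39 without H4K16Q replicate 1. None of these genes passed the adjusted test.

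Genes that yeast represses on glucose and those of entry into stationary phase varied more between replicates than between the strains. The list of the glyoxylate cycle, gluconeogenesis and use of acetate or ethanol had a median level of 9.02 and 6.13 in H4K16Q, against 7.94 and 4.66 in H4H18A. In both strains the library numbered 1 was the higher one in 18 of 19 genes, against 23.7% of all features tested. Its median log2 fold change was 0.99. In this list 2 of the 19 genes (10.5%) lay above in both H4K16Q libraries and 0 below, against 14.4% and 11.5% of all features, and the median was -1.30 without H4K16Q replicate 1 and 3.58 without H4H18A replicate 1. In bulk RNA from a culture, a lower level in every cell and a smaller share of cells in a given growth state cannot be told apart.

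PCK1, for the gluconeogenic PEP carboxykinase, had 4521 and 19.4 CPM in H4K16Q, against 535 and 2.12 CPM in H4H18A. JEN1, the lactate transporter, had 756 and 42.0 CPM in H4K16Q, against 789 and 14.8 CPM in H4H18A. MLS1, for malate synthase, had 2109 and 18.3 CPM in H4K16Q, against 422 and 6.35 CPM in H4H18A. Each strain thus had a library with high and a library with low levels of these genes, of which PCK1 and MLS1 were chosen after their values were seen. ADH2, the alcohol dehydrogenase that consumes ethanol, was the member whose groups did not overlap, with 1085 and 288 CPM in H4K16Q and 167 and 46.6 CPM in H4H18A (log2 2.69, SE 0.94, and log2 between 1.33 and 3.89 without any 1 library). The other was ALD2, with 104 and 67.7 CPM in H4K16Q and 67.4 and 22.2 CPM in H4H18A.

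Several other lists of this kind had the same order of libraries, though not all. In the 17 genes of peroxisomal fatty acid oxidation, 14 were higher in the library numbered 1 of both strains (median log2 fold change 0.63), and in the 35 genes of the respiratory chain and ATP synthase 26 were (median 0.28). Without H4K16Q replicate 1 these medians were -0.96 and -0.47. Stationary-phase and general stress genes had a median level of 8.16 and 5.81 in H4K16Q, against 7.35 and 4.66 in H4H18A, and their median difference over 23 genes was 0.44 on the log2 scale, or -0.75 without H4K16Q replicate 1 and 2.25 without H4H18A replicate 1. In the trehalose and glycogen list, 3 of 20 genes (15%) were higher in the library numbered 1 of both strains, under the 23.7% of all features, and H4K16Q replicate 1 was above replicate 2 in 4 of the 20. SNZ1, a vitamin B6 gene induced in stationary phase, had 489 and 20.9 CPM in H4K16Q, against 26.1 and 29.6 CPM in H4H18A (log2 3.19, SE 1.13), and it was at -0.49 without H4K16Q replicate 1. HSP12 and HSP26, small heat shock proteins named after their values were seen, had 6469 and 3371 CPM in H4K16Q, against 13952 and 541 CPM in H4H18A, and 7853 and 1488 CPM against 9959 and 162 CPM. Heat shock and chaperone genes had a median of 0.07 on the log2 scale, and those of the tricarboxylic acid cycle one of 0.38, and both were below 0 without H4H18A replicate 2 (-0.49 and -0.26).

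Glycolysis genes had yet another order. All 24 had a log2 fold change above 0 (median 0.53). The groups did not overlap in PDC6 alone, 4.17% of the list, against 14.4% above and 11.5% below over all features. The median level was 10.1 and 12.04 in H4K16Q, against 11.3 and 10.1 in H4H18A. H4K16Q replicate 2 was above replicate 1 in 23 of the genes, H4H18A replicate 1 was above replicate 2 in 23, and the median was -0.73 without H4K16Q replicate 2. HXT1, the low-affinity glucose transporter, had 373 and 58.9 CPM in H4K16Q, against 84.8 and 26.5 CPM in H4H18A (log2 1.98, SE 0.89, and log2 0.0045 without H4K16Q replicate 1), and HXT2 had 231 and 149 CPM against 73.9 and 91.0 CPM.

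**Figure D5:**
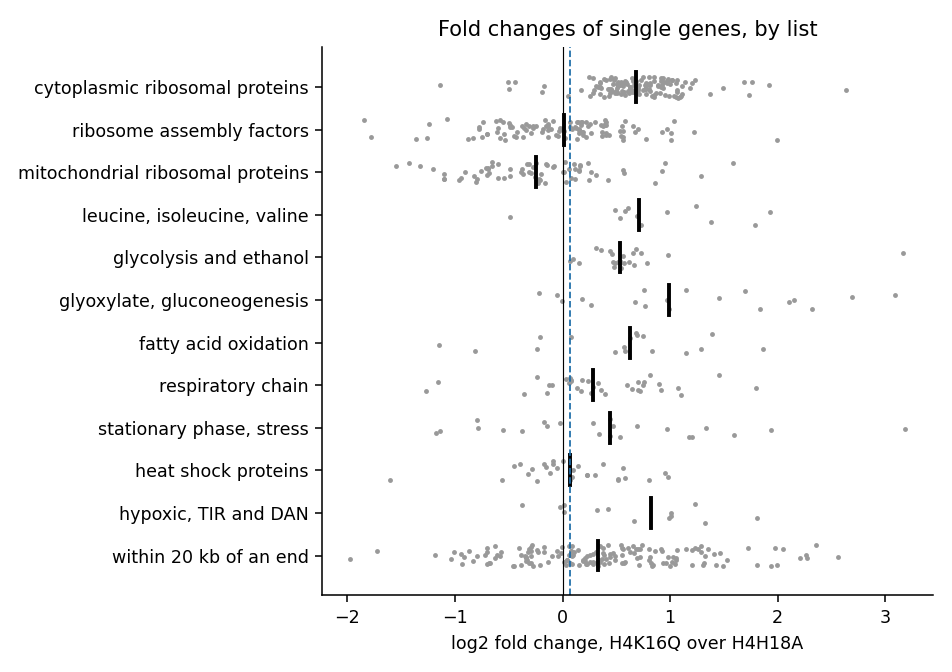
Log2 fold change of H4K16Q over H4H18A of each gene (grey points) in the 12 lists, with the median of each list as a black bar, 0 as a solid line and the median of all tested features, 0.066, as a dashed line. Genes at 0 counts in both H4H18A libraries are counted in the medians but lie outside the plot, and the bars of cytoplasmic and mitochondrial ribosomal protein genes stand at 0.68 and -0.25.

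Smaller lists gave the following values, where counts of genes above and below are to be read against 14.4% and 11.5% of all features. Hypoxic genes and those of the TIR and DAN cell wall proteins had a median of 0.83 over 14 genes, or 0.54 with DAN1 at its bound, and 6 (42.9%) had both H4K16Q libraries above. DAN1, which was at 0 counts in both H4H18A libraries, is counted among the 6. Without H4H18A replicate 2 the median was 0.21. The others above included TIR1 (261 and 188 CPM in H4K16Q, 137 and 44.5 CPM in H4H18A) and TIR3 (32.0 and 34.2 CPM against 13.0 and 14.8 CPM). Of 26 ergosterol synthesis genes, 10 (38.5%) lay above and 2 (7.69%) below, with a median of 0.28. In nitrogen use, 8 of 32 (25%) lay above, DAL80 at 0 counts in H4H18A among them, and 1 (3.12%) below. The median was 0.47, or 0.42 with DAL80 at its bound and -0.07 without H4H18A replicate 2. UGA3, the activator of GABA use, had 115.8 and 39.3 CPM in H4K16Q, against 17.4 and 29.6 CPM in H4H18A (log2 1.69, SE 0.68, and log2 0.66 without H4K16Q replicate 1). The ammonium permease gene MEP2 had 73.2 and 34.4 CPM in H4K16Q and 21.7 and 16.9 CPM in H4H18A (log2 1.495, SE 0.63, and log2 0.77 without H4K16Q replicate 1). Among antioxidant genes, mitochondrial thioredoxin TRX3 had 57.7 and 32.4 CPM in H4K16Q, against 17.4 and 10.6 CPM in H4H18A (log2 1.74, SE 0.65, and log2 1.18 without H4K16Q replicate 1), and glutathione synthetase GSH2 had 33.5 and 38.8 CPM against 78.3 and 110 CPM (log2 -1.39, SE 0.55). The peroxidase gene GPX1 had 1241 and 78 counts in H4K16Q and 6 and 0 counts in H4H18A. The superoxide dismutases SOD1 (1483 and 3415 CPM in H4K16Q, 3083 and 1223 CPM in H4H18A) and SOD2 (876 and 1220 CPM against 1196 and 193 CPM) overlapped between the strains. Medians near 0 were found for the proteasome (0.00 over 34 genes), phosphate-regulated genes (0.09 over 20) and copper genes (0.05 over 6).

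The genes of the strain genotype were checked in every library. LEU2, LYS2 and TRP1 had 0 counts in all 4 libraries, and MET17 (MET15) had 1 count in H4H18A replicate 2 and 0 elsewhere. CAN1 had 20 and 1 counts in H4K16Q and 0 and 0 in H4H18A, and HIS3 had 239 and 102 counts in H4K16Q and 12 and 0 in H4H18A. URA3, which marks the cassette, had 38.6 and 34.9 CPM in H4K16Q, against 47.8 and 139.7 CPM in H4H18A (log2 -1.37, SE 0.62, and log2 -0.51 without H4H18A replicate 2). Counts per gene do not show the codons of residues 16 and 18, so the substitutions themselves were not checked.

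Of the 10 histone genes tested, HTB1 and HTA2 (20%) lay above in both H4K16Q libraries and 0 below, against 14.4% and 11.5% of all features. The median was 0.55, or -0.30 without H4K16Q replicate 2. HTB1, for H2B, had 290 and 168 CPM in H4K16Q, against 82.6 and 83.6 CPM in H4H18A (log2 1.46, SE 0.62, and log2 0.94 without H4K16Q replicate 1). HTA2, for H2A, had 156 and 264 CPM in H4K16Q, against 152 and 63.5 CPM in H4H18A, so that its groups were barely apart. HHT1, for H3, had 86.2 and 628 CPM in H4K16Q, against 407 and 33.9 CPM in H4H18A, and HHF1, for H4, had 56.9 and 175 CPM against 117 and 12.7 CPM. These counts fell on a locus that the genotype gives as replaced. At the locus of the cassette, HHF2 had 0 and 4 counts in H4K16Q and 0 and 0 in H4H18A, but HHT2 had 249 and 2136 counts against 113 and 20. In CPM, HHT2 stood at 16.5 and 291 in H4K16Q and at 246 and 21.2 in H4H18A. HHT1 and HHF1 share most of their sequence with HHT2, HHF2 and possibly the cassette, so reads cannot be assigned to a locus with certainty. The H2A.Z gene HTZ1 had 30.1 and 42.9 CPM in H4K16Q, against 65.2 and 16.9 CPM in H4H18A.

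Genes of silencing and mating were low and mostly overlapped. SIR2, the H4K16 deacetylase, had 22.5 and 21.7 CPM in H4K16Q and 4.35 and 23.3 CPM in H4H18A, on 2 and 22 counts. SIR3 had 47.2 and 29.7 CPM in H4K16Q and 39.1 and 25.4 CPM in H4H18A, and SIR1 had 15.02 and 12.3 CPM against 8.70 and 16.9 CPM. SIR4 alone of the 4 had groups that did not overlap, with 71.3 and 59.8 CPM in H4K16Q and 43.5 and 46.6 CPM in H4H18A. The histone deacetylase genes RPD3 (40.9 and 46.3 CPM in H4K16Q, 93.5 and 72.0 CPM in H4H18A) and HDA1 (34.1 and 37.6 CPM against 58.7 and 57.2 CPM) lay below in H4K16Q. Over the 22 genes of silencing factors and H4K16 enzymes the median was -0.01, with 2 (9.09%) above and 5 (22.7%) below, against 14.4% and 11.5% of all features.

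The cell type was checked through mating genes. The alpha1 gene of the MAT locus and that of HML, MATALPHA1 and HMLALPHA1, had 0 counts in all 4 libraries. They are copies of 1 sequence in the reference, so reads that fit both may not have been counted, and the zeros alone do not show that the gene was silent. MATALPHA2, which has a copy at HML as well, had 13 and 1 counts in H4K16Q and 1 and 0 in H4H18A. HMRA1, which shares its sequence with the a1 gene of the mating type locus, had 304 and 59 counts in H4K16Q and 4 and 0 counts in H4H18A. The a-specific pheromone receptor gene STE2 had 28.5 and 2.45 CPM in H4K16Q, against 13.0 and 4.23 CPM in H4H18A, and STE6, the exporter of a-factor, had 47.7 and 8.45 CPM against 21.7 and 21.2 CPM. MFA2, for a-factor, had 235 and 9 counts in H4K16Q and 8 and 0 counts in H4H18A. All alpha-specific genes stood at 27.5 CPM or less, and no a-specific gene exceeded 47.7 CPM. MFA1, also for a-factor, had 64 and 4 counts in H4K16Q and 1 and 0 counts in H4H18A. The alpha-factor gene MF(ALPHA)2 had 6.15 and 5.18 CPM in H4K16Q, against 10.9 and 6.35 CPM in H4H18A. In replicate 2 of both strains it lay above MFA1, MFA2 and STE2, but not above STE6 or the a-specific BAR1. At such low levels these genes do not settle the cell type of replicate 2. The alpha-specific list had 5 tested genes with a median of -0.54 on the log2 scale, beside 0.18 for 6 a-specific genes. With 1 library left out, in part over fewer genes, these medians ran from -1.06 to 0.20 and from -2.07 to 1.135. The alpha-specific SAG1 had 22.0 and 19.5 CPM in H4K16Q and 8.70 and 27.5 CPM in H4H18A, above STE2 and STE6 in replicate 2 of both strains. AFB1, also alpha-specific, had 104 and 48 counts against 0 and 2 (log2 2.30). STE3, the a-factor receptor gene of alpha cells, had 3.77 and 7.09 CPM in H4K16Q and 13.0 and 6.35 CPM in H4H18A, on 6 counts in each H4H18A library.

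Genes that the study places at Sir3 peaks in H4K16Q and not in H4H18A, by ChIP-seq in stationary phase, showed no common direction here. Not all are particular to H4K16Q: the study also lists CMC4 and PUT4 at peaks in H3E50A, and YFR018C, UTR5 and IGD1 at peaks in wild type. The list has 26 names, of which YGR038C-A and YGR038C-B were not matched to a feature of the tables and 23 of the other 24 were tested, with 15 above 0 and 8 below and a median of 0.17, beside 54.8% above 0 and a median of 0.066 over all features. The median was -0.46 without H4K16Q replicate 2 and 0.56 without H4H18A replicate 1. In 2 (8.70%) both H4K16Q libraries lay above and in 1 (4.35%) below, against 14.4% and 11.5% of all features. CMC4, a mitochondrial intermembrane space protein, had 29.6 and 19.4 CPM in H4K16Q, against 10.9 and 9.53 CPM in H4H18A, and LEU4, for isopropylmalate synthase, had 2263 and 931 CPM against 863 and 487 CPM. Both lay above in H4K16Q, while MDJ1, a mitochondrial Hsp40, lay below with 116 and 190 CPM in H4K16Q and 228 and 191 CPM in H4H18A. GDH1, the NADP-dependent glutamate dehydrogenase, had 421 and 1802 CPM in H4K16Q, against 1209 and 250 CPM in H4H18A, and the vacuolar protease gene PRB1 had 1699 and 1664 CPM against 1837 and 411 CPM. Without the YLR154 features, the median was 0.22 and MDJ1 no longer lay below.

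At Sir3 peaks in H4H18A and not in H4K16Q the study lists 8 genes, of which YGR027W-A and YGR027W-B were not matched. The other 6 had a median of -0.14 (0.79 without H4H18A replicate 1), with 2 above 0 and 4 below. AGP1, an amino acid permease, had 711 and 560 CPM in H4K16Q, against 515 and 214 CPM in H4H18A, and was the only one of the 6 (16.7%) whose groups did not overlap, against 14.4% above and 11.5% below over all features. SHR5, a palmitoyltransferase subunit, had 21.9 and 65.4 CPM in H4K16Q and 47.8 and 19.1 CPM in H4H18A. At peaks in both strains the study lists 8 genes, of which 5 were tested, with a median of -0.0013. QCR6, of complex III, which the study also lists at peaks in wild type and H3E50A, lay below in H4K16Q (202 and 228 CPM, against 404 and 558 CPM in H4H18A). SND1, of a targeting pathway to the endoplasmic reticulum, lay above (268 and 261 CPM, against 220 and 180 CPM in H4H18A). These were 1 (20%) below and 1 (20%) above, against the same 11.5% and 14.4% of all features. The groups of PHO4, YIL055C and MAM3 overlapped, of which the study also lists PHO4 in wild type and H3E50A and YIL055C in H3E50A. None of these genes had an unadjusted p under 0.05.

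Within 20 kb of a chromosome end, 165 of 244 genes had enough counts to be tested. Their median log2 fold change was 0.33, or 0.31 with genes at 0 in H4H18A set to their bound, with 113 above 0 and 52 below, and it was 0.018 without H4K16Q replicate 1. In 30 (18.2%) both H4K16Q libraries lay above both H4H18A libraries and in 12 (7.27%) below, against 14.4% and 11.5% of all features. Of the 30, 2 were at 0 counts in both H4H18A libraries, so that their direction was fixed beforehand. PDR18, an ABC transporter gene, had 50.7 and 41.2 CPM in H4K16Q, against 17.4 and 14.8 CPM in H4H18A (log2 1.52, SE 0.60), and COX14, a mitochondrial assembly factor, had 16.3 and 21.3 CPM against 52.2 and 26.5 CPM. These genes are weakly expressed (median log2 of CPM plus 2 of 3.76 and 3.81 in H4K16Q, 3.91 and 3.39 in H4H18A), near the limit of 3 counts in H4H18A, and 79 of the 244 were not tested.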

How the data were processed

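RNA of cultures at 16 h was used in 4 libraries (2 of H4K16Q, 2 of H4H18A), with the other 4 of the series only for the YLR154 share and as alternatives. The authors prepared TruSeq stranded total RNA libraries, sequenced paired ends, trimmed reads with Trim Galore, mapped them to R64 with STAR and deposited featureCounts read counts per gene without normalization. The strand setting and tool versions are not given in the sources used here. Without strand, overlapping and antisense genes cannot be told apart. The deposited edgeR tables of each mutant library against wild type (fold changes, F, p) were not used.

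Counts were fitted in R 4.3.3 with edgeR 4.0.16 (filterByExpr, minimum count 10 and total 15, TMM scaling, quasi-likelihood test, Benjamini-Hochberg threshold 0.05) with 1 group per strain and no covariate, with all features and without the 7 hyphenated YLR154 features. CPM are TMM-scaled. DESeq2 1.42.0 and further settings were alternatives. Scripts were tested on simulated data. blastn 2.17.0 found matches to the ribosomal repeat (at least 50 bases, 95% identity). Positions came from RefSeq R64, matched by 5917 of 6600 features (89.7%), and included 3 of the 7 YLR154 features.

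The members and gene lists were chosen with earlier results of these data known. Genes named were drawn, not always in full, from the YLR154, histone, genotype, SIR and mating genes and those of the study's Sir3 peaks and text. To these came the 10 per direction with the smallest p (mean of at least 20 CPM, libraries not overlapping, outside rRNA genes). Up to 3 per direction and list and features over 5% of a library were added. For 2 lists, a run without genes outside their names was chosen after seeing the data. Others are said to be chosen after their values were seen. Of the genes the rule gives, those not printed were not tested or had an unadjusted p of 0.05 or more.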

Additional observations from a re-analysis of the deposited data

How the results depend on the processing

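With all features, the count of features past the threshold, 0 in the quasi-likelihood test of edgeR, was 7 with DESeq2, 7 with the likelihood-ratio test and 13 with total counts only, of which 6 were higher (PDC6, PIR3, PCK1, DPA10, SNZ1 and ADH2) and 7 lower in H4K16Q (the 6 YLR154 features and RRT15). That scaling moved the median log2 fold change of all features to 0.36 and the share above 0 to 72.3%. Leaving out 1 library gave between 0 and 86 calls: 86 without H4H18A replicate 1 (64 higher and 22 lower, none of them a YLR154 feature, with 7 genes each of the glyoxylate and stationary-phase lists), 12 without H4K16Q replicate 2, and 0 without either other library. The lone library of a strain is then assumed to vary like the other strain. The fit without H4H18A replicate 1 tested 5910 features, and the glyoxylate and stationary-phase lists hold 19 and 24 genes. Of the genes called higher in it, GPX1 and FUS3 were at 0 counts in the remaining H4H18A library. Their direction was thus fixed beforehand, and their log2 values, 11.5 and 10.05, are not bounds. PCK1 and FBP1 rested on 2 counts each in that library. Without the YLR154 features the range was 0 to 11, with 11 without H4K16Q replicate 2 and 0 without any other library or in any other setting, and total counts only gave 43.9% above 0 and a median of -0.10. RLE scaling, no filter, a minimum of 20 CPM, 6 or 8 libraries in the fit, thinning to 621770 counts, and removal of rRNA-overlapping features and YGL088W gave 0 calls with all features. So did removal of the features that share sequence with the repeat, an alternative chosen after seeing the data.

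The replicate numbers are shared by the strains, but nothing in the labels says that they mark a batch, and the deviations of same-numbered libraries had a correlation of -0.019, so the numbers were not taken as pairs. With the replicate number as a block, 0 features were called and 89 had an unadjusted p under 0.05, against 136 without it.

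Among genes given with a p, the sign turned when 1 library was left out for NOP16 (-2.53 to 0.25), MAK16 (-2.67 to 0.44), OAC1 (-0.21 to 2.73) and SNZ1 (-0.49 to 4.11). Of 42 list medians, 15 changed sign when H4K16Q replicate 1 was left out, 10 when its replicate 2 was, 6 without H4H18A replicate 1 and 14 when H4H18A lost replicate 2, among them some well away from 0, such as those of fatty acid oxidation (0.63 to -0.96) and stationary-phase genes (0.44 to -0.75) without H4K16Q replicate 1 and of histones (0.55 to -0.30) without H4K16Q replicate 2. Both the spread between replicates and the depth of H4H18A limit the comparison, and they were not ranked: 838 features with 10 counts in both H4K16Q libraries had fewer in both H4H18A libraries, and genes under about 6.52 CPM could not be compared there.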
